A study of Mus musculus with 8 samples.

Results

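Alpha cells are the glucagon-secreting cells of the pancreatic islet, and the 9 genes described here are the glucagon gene and 8 others that mark or specify these cells in the mouse. They were taken by symbol from count tables of 55414 Ensembl mouse genes: Gcg, Irx1, Irx2, Pou3f4, Ttr, Gc, Tm4sf4, Slc7a14 and Dpp10. All 9 were found and all 9 passed the filter on low counts. RNA came from pancreatic islets of C57BL/6 mice at 5 weeks of age, in 4 libraries labelled TG and 4 labelled WT. TG islets carried the genotype Ins2 cre(+/-) ATF4 TG(+/-), and WT islets Ins2 cre(-/-) ATF4 TG(+/-), so the control animals also carried the ATF4 transgene and lacked the Cre recombinase that is driven from the insulin 2 gene and hence directed to beta cells. No group carried Cre without the transgene, so effects of Cre itself and of the transgene cannot be told apart. Whole islets were sequenced and alpha cells were not sorted. The question here is how transcripts of alpha cells compare between islets whose beta cells were aimed at with Cre and islets without Cre.

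Glucagon raises blood glucose, chiefly by acting on the liver, and opposes insulin. Alpha cells cut it from proglucagon with the prohormone convertase PCSK2, whereas PCSK1 releases glucagon-like peptide 1 from the same precursor in the gut. Iroquois and POU-domain factors are among the transcription factors of developing alpha cells, and several other islet factors, such as PAX6 and NEUROD1, work in alpha and beta cells alike. In adult mouse islets alpha cells lie around a core of beta cells.

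Counts on genes totalled 17124766 to 22419399 in TG libraries and 16521087 to 22499999 in WT libraries. Levels are CPM, the counts of a gene scaled to a common library size with TMM factors. Atf4 (ENSMUSG00000042406), the endogenous counterpart of the transgene, stood at 261 ± 19.8 CPM in TG islets and 352 ± 21.1 CPM in WT islets (SD, n = 4 each). Whether transgene reads were counted as Atf4 is not known here, so Atf4 does not check the labels. Nothing in the labels says whether the libraries of a group came from separate animals, so the tests weigh the groups against a spread between libraries that may be technical. TG replicate 1 stood apart in acinar digestive-enzyme transcripts, whose 10 genes summed to 44914 CPM there, against 7088 to 13928 CPM in the other TG libraries and 1402 to 13575 CPM in the WT libraries. TG replicates 2 and 3 stood apart in macrophage and leukocyte transcripts, with sums of 350 and 279 CPM over 8 genes, against 97.4 and 127 CPM in TG replicates 4 and 1 and 38.3 to 73.7 CPM in WT libraries. The defining hormone transcript of alpha cells was abundant, with Gcg at 26007 to 45089 CPM in TG islets and 17620.4 to 33609 CPM in WT islets. In bulk islets fewer cells of a type and less RNA per cell cannot be told apart.

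Most alpha-cell genes measured here did not pass the test between the groups, while the insulin genes of the same islets were lower in TG. Gc, the vitamin D binding protein, was higher in every TG library than in any WT library, and Slc7a14, a lysosomal member of the SLC7 carrier family, was lower in every TG library than in any WT library. The other 7 genes overlapped between the groups. With edgeR's quasi-likelihood test and Benjamini-Hochberg adjustment over 20509 genes, called at an adjusted p under 0.05, 2 of the 9 were called, 1 higher and 1 lower. Among all genes tested 20.1% were called, 12.1% higher and 8.06% lower, so the share of these 9 that was called, 22.2%, lies near that of all genes. The groups did not overlap for 2 of the 9, 1 in each direction, against 22.6% of all genes, 12.6% higher and 9.94% lower. The median log2 fold change of TG over WT was 0.11 over the 9 genes and −0.0019 over all genes.

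**Figure D1:**
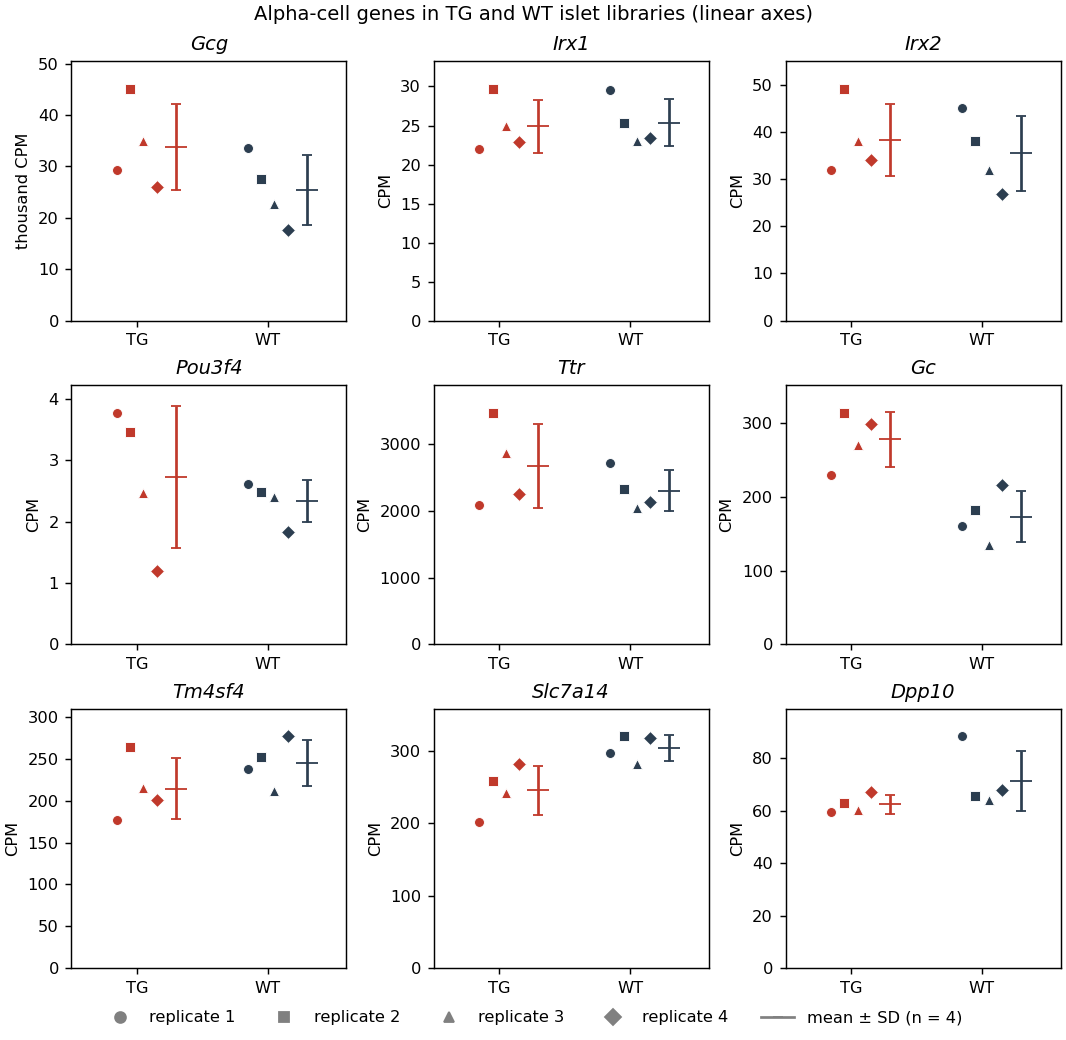
Level of each of the 9 alpha-cell genes in CPM (Gcg in units of 1000 CPM) in TG libraries (left, red) and WT libraries (right, dark blue), with symbols for replicates and bars for mean ± SD (n = 4). Only Gc, at 230 to 315 CPM in TG and 134 to 216 CPM in WT, and Slc7a14, at 201 to 281.5 CPM in TG and 281.7 to 320 CPM in WT, show no overlap between the groups.

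Promoter windows of 7 of the 9 genes were found in the RefSeq table of build GRCm38.p6, with no entry for Irx1 and Ttr. Those of Gcg, as the hormone gene, and of Gc and Slc7a14, as the called members, are shown 5′ to 3′ on the strand of the gene, from 250 bases before to 50 after its start. They lie at chr2:62483604-62483903 (minus strand) for Gcg, chr5:89457849-89458148 (minus strand) for Gc and chr3:31310270-31310569 (minus strand) for Slc7a14. Capitals mark matches on either strand to the cyclic AMP response element TGACGTCA, to TGATGNAA, the core of the composite element bound by C/EBP and ATF factors, and to the TATA box TATAAA, which do not overlap in these windows.
Gcg: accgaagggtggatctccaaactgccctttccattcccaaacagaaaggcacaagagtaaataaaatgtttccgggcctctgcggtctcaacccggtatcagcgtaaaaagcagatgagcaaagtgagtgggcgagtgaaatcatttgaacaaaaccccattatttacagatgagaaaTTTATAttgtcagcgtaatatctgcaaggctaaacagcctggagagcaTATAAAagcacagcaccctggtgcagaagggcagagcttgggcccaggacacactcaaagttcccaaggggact
Gc: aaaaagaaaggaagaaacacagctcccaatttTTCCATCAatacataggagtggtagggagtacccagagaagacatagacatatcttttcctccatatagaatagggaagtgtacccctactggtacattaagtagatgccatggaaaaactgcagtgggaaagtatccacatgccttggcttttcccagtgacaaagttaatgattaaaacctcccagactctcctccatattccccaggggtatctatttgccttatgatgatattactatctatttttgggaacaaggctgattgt
Slc7a14: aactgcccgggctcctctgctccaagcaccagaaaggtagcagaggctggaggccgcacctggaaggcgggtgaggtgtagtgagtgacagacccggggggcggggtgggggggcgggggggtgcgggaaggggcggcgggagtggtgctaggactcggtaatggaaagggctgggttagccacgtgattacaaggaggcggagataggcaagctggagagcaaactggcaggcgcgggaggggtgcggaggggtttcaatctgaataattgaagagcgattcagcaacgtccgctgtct
Gcg held 2 matches to TATAAA, and Tm4sf4 held 1, where 13.6% of 32851 promoter windows hold at least 1. Gc held 1 match to TGATGNAA, on the opposite strand at −218 from the start, and the other 6 windows held 0, where 3.97% of all windows hold one. TGACGTCA matched in 0 of the 7 windows and in 1.79% of all windows. These matches describe letters in short windows only.

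Gcg (ENSMUSG00000000394), which encodes proglucagon, was among the most abundant transcripts. It measured 29316, 45089, 34990.5 and 26007 CPM in TG replicates 1 to 4, against 33609, 27468, 22633 and 17620.4 CPM in WT replicates 1 to 4. Each TG library lay above the WT mean, but WT replicate 1 exceeded TG replicates 1 and 4, so the groups overlapped. The means were 33851 ± 8360.4 CPM in TG and 25332 ± 6827 CPM in WT (SD, n = 4 each), 1.34-fold higher in TG. On the log2 scale Gcg differed by 0.42 (SE 0.23, 95% interval −0.11 to 0.94, adjusted p = 0.261, edgeR), so a change of Gcg was not separated from the spread between libraries, and the interval still holds a rise of 0.94 on the log2 scale. Without TG replicate 2, the highest TG library, the log2 fold change was 0.25 (adjusted p = 0.5), and without WT replicate 1, the highest WT library, it was 0.58 (adjusted p = 0.108). Of 18 alternative settings 1 called Gcg higher, the one with the replicate number as a block. As a share of gene counts Gcg took 2.67% to 4.52% in TG libraries and 1.75% to 3.10% in WT libraries. It made up between 89.1% and 91.2% of the summed counts of the 9 genes in TG and between 85.2% and 90.3% in WT.

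The alpha-cell transcription factors showed no called change. Irx1 (ENSMUSG00000060969), an Iroquois homeobox factor, measured 22.0, 29.7, 24.9 and 22.9 CPM in TG replicates 1 to 4, against 29.6, 25.4, 23.0 and 23.5 CPM in WT replicates 1 to 4. Its values lay in the same band in both groups, with a log2 fold change of −0.026 (SE 0.13, 95% interval −0.30 to 0.24, adjusted p = 0.919). Irx2 (ENSMUSG00000001504), its neighbour of the same homeobox family on chromosome 13, measured 32.0, 49.2, 38.1 and 34.0 CPM in TG, against 45.2, 38.1, 31.9 and 26.9 CPM in WT. TG replicate 2 and WT replicate 1 were the high libraries of their groups for Irx2, as they were for Irx1. The log2 fold change of Irx2 was 0.11 (SE 0.17, 95% interval −0.25 to 0.47, adjusted p = 0.715). Pou3f4 (ENSMUSG00000056854), also known as Brn4, is an X-linked POU-domain factor that binds the glucagon gene promoter. It was the scarcest of the 9, with 70, 78, 56 and 21 raw counts in TG libraries and 54, 54, 52 and 30 raw counts in WT libraries. In CPM these were 3.78, 3.47, 2.47 and 1.20 in TG and 2.61, 2.49, 2.41 and 1.83 in WT, and TG replicate 4 was the lowest of all. At this depth its log2 fold change of 0.22 had an SE of 0.34 and a 95% interval of −0.49 to 0.94 (adjusted p = 0.709), so neither a fall nor a rise of moderate size was detectable.

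Ttr (ENSMUSG00000061808) encodes transthyretin, a carrier of thyroid hormone and of retinol-binding protein that is made in liver, choroid plexus and islets. It measured 2087, 3476, 2877 and 2263 CPM in TG replicates 1 to 4, against 2728, 2332, 2041 and 2129 CPM in WT replicates 1 to 4. TG replicate 2 was again the highest and the groups overlapped (log2 fold change 0.21, SE 0.15, 95% interval −0.11 to 0.54, adjusted p = 0.373). Rbp4, the retinol-binding protein that transthyretin carries and a transcript of delta cells in mouse islets, averaged 157 ± 14.6 CPM in TG and 170 ± 53.6 CPM in WT (SD, n = 4 each; log2 fold change −0.12, adjusted p = 0.726).

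Gc (ENSMUSG00000035540), the vitamin D binding protein of plasma, which also binds monomeric actin, was the member that rose. It measured 230, 315, 271 and 299 CPM in TG replicates 1 to 4, against 161, 182, 134 and 216 CPM in WT replicates 1 to 4. Every TG library exceeded every WT library, with the smallest gap between TG replicate 1 and WT replicate 4. The means were 279 ± 37.3 CPM in TG and 173 ± 34.4 CPM in WT (SD, n = 4 each), 1.61-fold higher in TG, which is 0.69 on the log2 scale (SE 0.14, 95% interval 0.39 to 0.98, adjusted p = 0.00336). Without single libraries it lay between 0.58 and 0.80, and Gc was called in all 18 alternative settings. With the mean level of endothelial, stromal and mural genes as a covariate the value was 1.41 (adjusted p = 0.00143), and with that of acinar genes it was 0.89 (adjusted p = 4.94e-05). Sums of the endothelial and of the stromal and mural markers did not overlap between the groups. The covariate built on them thus follows the group and widens SEs (Gc 0.21 against 0.14). Calls can be lost with it even where the value does not shrink. Gc is also a major liver transcript. The 6 hepatocyte markers summed to between 8.18 and 10.2 CPM in TG and between 9.17 and 10.7 CPM in WT, with Alb, their defining marker and a gene of the same albumin family as Gc, at 2.80 to 5.18 CPM in TG and 2.39 to 3.77 CPM in WT. Of the 5 hepatocyte markers tested, 0 were higher and 1 was lower, where 12.1% of all genes were called higher and 8.06% lower. Afp, another albumin relative, stayed at or below 0.918 CPM in TG and 1.15 CPM in WT.

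Tm4sf4 (ENSMUSG00000027801), a multi-pass membrane protein of the L6 family, measured 177, 264, 215 and 201 CPM in TG replicates 1 to 4, against 238, 252, 211 and 277 CPM in WT replicates 1 to 4. The groups overlapped, because TG replicate 2 lay above 3 of the WT libraries (log2 fold change −0.19, SE 0.12, 95% interval −0.44 to 0.060, adjusted p = 0.295). Its value was 0.27 with the endothelial and stromal covariate (adjusted p = 0.733), of the opposite sign. Its relative Tm4sf1, a transcript abundant in endothelium, rose 1.88-fold (log2 fold change 0.91, SE 0.12, adjusted p = 8.78e-05). The log2 fold change of Tm4sf1 was 0.38 with the endothelial and stromal covariate and was no longer called (adjusted p = 0.579).

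Slc7a14 (ENSMUSG00000069072) measured 201, 259, 242 and 282 CPM in TG replicates 1 to 4, against 298, 320, 281.7 and 318 CPM in WT replicates 1 to 4. The groups did not overlap, but TG replicate 4 at 281.5 CPM and WT replicate 3 at 281.7 CPM were almost level. The means were 246 ± 33.8 CPM in TG and 304 ± 18.1 CPM in WT (SD, n = 4 each), 1.24-fold lower in TG (log2 fold change −0.31, SE 0.10, 95% interval −0.52 to −0.094, adjusted p = 0.0418). With single libraries left out the value stayed between −0.41 and −0.22, but the call lay near the threshold. Omitting a TG library ended it for replicate 1 (−0.22, adjusted p = 0.137), replicate 2 (−0.33, adjusted p = 0.0562) and replicate 3 (−0.33, adjusted p = 0.0784). Omitting a WT library ended it for replicate 1 (−0.32, adjusted p = 0.0706), replicate 2 (−0.29, adjusted p = 0.118) and replicate 4 (−0.29, adjusted p = 0.0934). TG replicate 1, the lowest, was the library with the high acinar sum, and with acinar genes as a covariate the value was −0.22 (adjusted p = 0.172). With the endothelial and stromal covariate it was −0.0022 (adjusted p = 0.999). Other carriers of the SLC7 family differed among themselves, and Slc7a2 had a value close to that of Slc7a14 (−0.27 against −0.31). The cationic amino acid carriers Slc7a1 and Slc7a3 rose by 1.66 (SE 0.11) and 6.16 (SE 0.35) on the log2 scale in the same fit, while Slc7a4 stood at −0.097 (adjusted p = 0.705) and Slc7a2, an alpha-cell arginine carrier, at −0.27 (adjusted p = 0.179, called lower without TG replicate 2 and with no low-count filter).

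Dpp10 (ENSMUSG00000036815), a dipeptidyl peptidase relative without enzymatic activity that accompanies Kv4 potassium channels, measured 59.4, 62.8, 60.2 and 67.2 CPM in TG replicates 1 to 4, against 88.3, 65.4, 64.0 and 67.7 CPM in WT replicates 1 to 4. All TG libraries lay below the WT mean, and WT replicate 1 stood well above the rest (log2 fold change −0.19, SE 0.11, 95% interval −0.42 to 0.034, adjusted p = 0.235). Without that library the value was −0.080 (adjusted p = 0.652). Its relatives were called in both directions. Dpp4, the active peptidase that inactivates glucagon-like peptide 1, measured 88.2, 85.5, 84.5 and 114 CPM in TG against 185, 163, 151 and 190 CPM in WT (log2 fold change −0.89, SE 0.11, adjusted p = 5.76e-05). Dpp6, the other inactive relative, rose by 0.44 (SE 0.12, adjusted p = 0.0143), and this call was lost without TG replicate 4 (0.29, adjusted p = 0.0679) and without WT replicate 2 (0.42, adjusted p = 0.0516). Fap, a peptidase of activated fibroblasts, rose by 1.67 (SE 0.23, adjusted p = 0.000162). With the endothelial and stromal covariate Dpp4 stood at −0.60, Dpp6 at 0.53 and Fap at 0.90, and none of them was called (adjusted p between 0.271 and 0.558).

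The same covariates moved the values of the remaining members, none of which was called with either (edgeR, adjusted p between 0.27 and 0.986). With the acinar covariate the log2 fold change was 0.31 for Gcg, −0.035 for Irx1, 0.042 for Irx2, −0.051 for Pou3f4, 0.24 for Ttr and −0.22 for Dpp10. With the endothelial and stromal covariate it was 0.56 for Gcg, 0.17 for Irx1, 0.31 for Irx2, −0.079 for Pou3f4, 0.51 for Ttr and −0.085 for Dpp10. The sign of Pou3f4 thus turned under both covariates (SE 0.36 with the acinar, 0.74 with the endothelial and stromal one). That of Irx1 turned under the endothelial and stromal covariate (SE 0.27). These values were smaller in size than their SEs, so their signs were not determined.

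Set against each other per kilobase of exon, the 9 genes spanned a wide range. In TG islets the order of mean level was Gcg at 22658 ± 5596 CPM per kilobase, Ttr at 2256 ± 533, Gc at 151 ± 20.2, Tm4sf4 at 143 ± 24.5, Slc7a14 at 25.0 ± 3.44, Irx2 at 11.7 ± 2.34, Irx1 at 9.5 ± 1.31, Dpp10 at 3.95 ± 0.223 and Pou3f4 at 0.932 ± 0.397 CPM per kilobase (SD, n = 4). The levels of the neighbours Gc and Tm4sf4 differed by less than either SD there, and those of Irx2 and Irx1 by less than the larger SD. In WT islets the level of Tm4sf4, at 164 ± 18.2 CPM per kilobase, stood above that of Gc, at 93.9 ± 18.6, and the order of the other genes was that of the TG islets.

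Some members varied together by library and others did not. TG replicate 2 was the highest TG library for 6 of the 9 genes, namely Gcg, Irx1, Irx2, Ttr, Gc and Tm4sf4, and TG replicate 1 was the lowest for 7. Among the WT libraries replicate 1 was the highest for 6, namely Gcg, Irx1, Irx2, Pou3f4, Ttr and Dpp10, and replicate 3 the lowest for 6. TG replicate 4 was the highest TG library for Slc7a14 and Dpp10 and the lowest for Gcg and Pou3f4, and WT replicate 4 was the highest WT library for Gc and Tm4sf4 and the lowest for Gcg, Irx2 and Pou3f4. The spread of Gcg within a group was wide, with a highest library 1.73 times the lowest in TG and 1.91 times in WT. Slc7a14 was steadier, at 1.40 times in TG and 1.14 times in WT. The genes whose deviations followed those of Gcg most closely over the 8 libraries, by the mean absolute difference of log2 CPM deviations among 11302 genes with at least 5 CPM on average, were Kcnj3 (0.115), an inwardly rectifying potassium channel subunit, Tcp11 (0.116) and Ntpcr (0.119). Ttr came in place 10 with 0.146, Irx2 in place 25 with 0.166, and Irx1 in place 330, while Gc (place 4139), Dpp10 (place 4472), Tm4sf4 (place 5098) and Slc7a14 (place 8642) lay far down the order. These places describe 8 libraries of 2 groups, which share the difference between the groups.

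**Figure D2:**
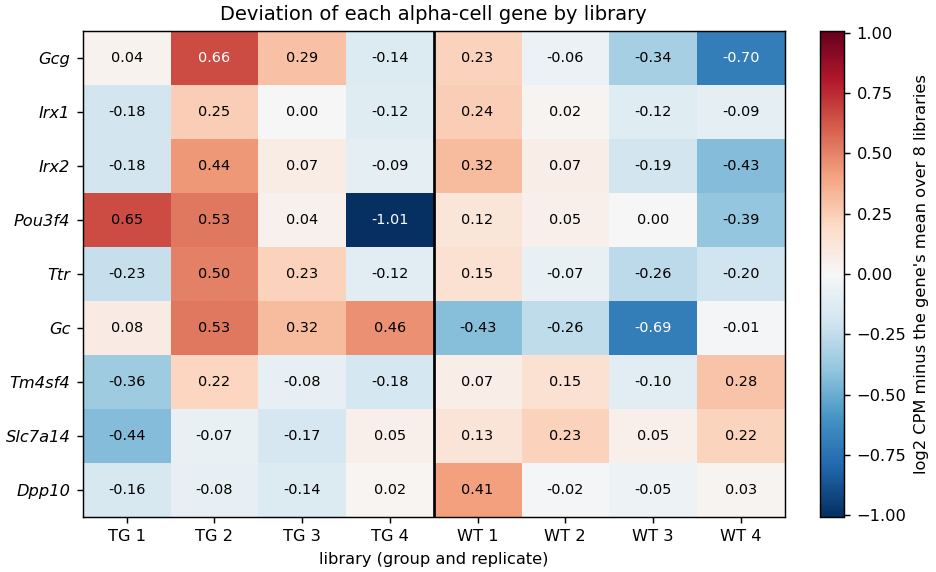
Log2 CPM of each alpha-cell gene in each library minus the mean of that gene over the 8 libraries, TG libraries left of the line and WT libraries right of it, with red above and blue below the mean. Gcg, Irx1, Irx2 and Ttr are highest in TG replicate 2 among TG libraries and in WT replicate 1 among WT libraries, whereas Gc separates the groups.

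Beside the alpha-cell genes, the insulin transcripts were lower, while somatostatin and pancreatic polypeptide did not pass the test. Ins2 measured 32818, 37691, 30654 and 33158 CPM in TG replicates 1 to 4, against 82409, 67949.9, 60848 and 67280.0 CPM in WT replicates 1 to 4 (log2 fold change −1.05, SE 0.10, adjusted p = 5.29e-06). Ins2 stood at −0.83 (adjusted p = 0.0645) and Ins1 at −1.67 (adjusted p = 0.0716) with the endothelial and stromal covariate, and neither was then called. Their SEs were 0.21 and 0.38 with it, against 0.10 and 0.20 without it, where Ins1 stood at −1.59. Somatostatin (Sst), the delta-cell hormone, measured 3674 ± 360 CPM in TG and 3882 ± 432 CPM in WT (SD, n = 4 each; log2 fold change −0.079, adjusted p = 0.653). Pancreatic polypeptide (Ppy) measured 6215 ± 917 CPM in TG and 5625 ± 663 CPM in WT (SD, n = 4 each; log2 fold change 0.14, adjusted p = 0.431). Peptide YY (Pyy) was called higher, at 0.27 (adjusted p = 0.0461), but lost the call in 11 of 18 alternative settings. The ratio of Gcg counts to Ins2 counts lay between 0.784 and 1.20 in TG libraries and between 0.262 and 0.408 in WT libraries, without overlap. With each library scaled to its own Gcg count, Ins2 was lower in TG by 1.48 on the log2 scale (log2 fold change −1.48, SE 0.31, adjusted p = 0.000133) and Ins1 by 2.10 (log2 fold change −2.10, SE 0.32, adjusted p = 1.1e-08). On the same scale Sst (−0.49, adjusted p = 0.254) and Ppy (−0.23, adjusted p = 0.605) were not separated from Gcg.

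**Figure D3:**
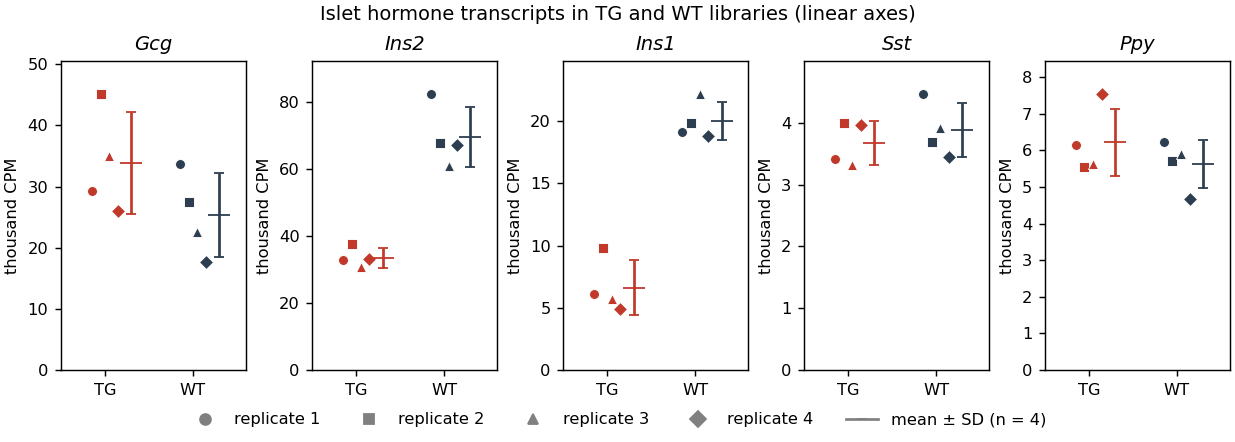
Levels of the islet hormone transcripts in units of 1000 CPM in TG libraries (left, red) and WT libraries (right, dark blue), with symbols for replicates and bars for mean ± SD (n = 4). Ins2 and Ins1 do not overlap between the groups, whereas Gcg, Sst and Ppy do.

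Scaling to Gcg also asks whether a member changed by another factor than the hormone gene. Of the other 8 members, 0 were called with edgeR's quasi-likelihood test (adjusted p between 0.0863 and 0.736), where 9.72% of all genes were, 3.03% higher and 6.68% lower. The lowest values among them were those of Slc7a14 (log2 fold change relative to Gcg −0.75, SE 0.30), Tm4sf4 (−0.68, SE 0.30) and Dpp10 (−0.60, SE 0.30). Relative to Gcg 7 of the 8 had negative values, and Gc stood at 0.20 (SE 0.30), where the median of all genes was −0.44. Without WT replicate 1 Slc7a14 (−0.89, adjusted p = 0.0239) and Tm4sf4 (−0.82, adjusted p = 0.0352) were called, and without TG replicate 4 Slc7a14 was (−0.97, adjusted p = 0.0221). Irx2 counts per 1000 Gcg counts were 1.09, 1.09, 1.09 and 1.31 in TG replicates 1 to 4, against 1.35, 1.39, 1.41 and 1.53 in WT replicates 1 to 4. These ratios did not overlap, although the difference was not called (log2 fold change relative to Gcg −0.31, 95% interval −0.89 to 0.27, adjusted p = 0.463). How many of all genes had ratios to Gcg without overlap was not counted. The value of Irx2 lay above the median of all genes on this scale, −0.44, and its CPM overlapped between the groups. Irx1 counts lay between 0.659 and 0.881 per 1000 Gcg counts in TG and between 0.880 and 1.33 in WT, overlapping only through TG replicate 4 and WT replicate 1. The test is a blunt one, since the counts of Gcg itself varied widely within each group.

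**Figure D4:**
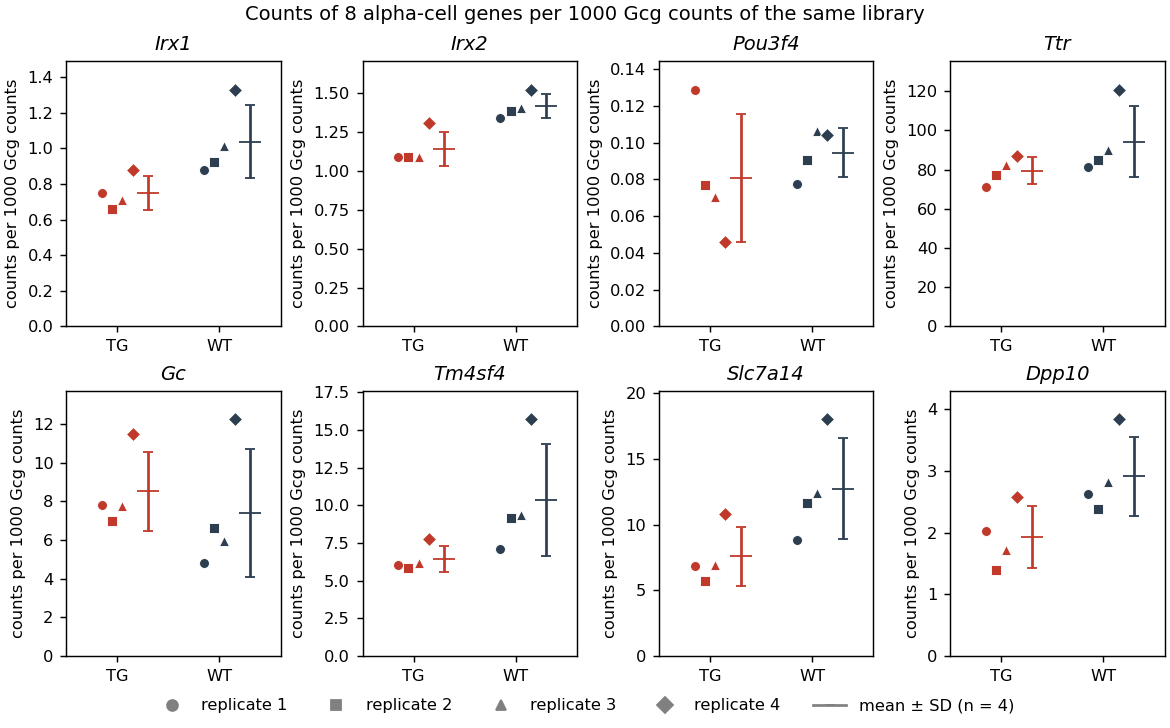
Counts of each of the other 8 alpha-cell genes per 1000 Gcg counts of the same library, TG libraries left (red) and WT libraries right (dark blue), with symbols for replicates and bars for mean ± SD (n = 4). Irx2 lies between 1.09 and 1.31 in TG and between 1.35 and 1.53 in WT, a difference that was not called. WT replicate 4, the library with the lowest Gcg level, is the highest for 7 of the 8 genes.

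Other genes typical of alpha cells gave a mixed picture. Of 13 tested, 4 were higher and 0 lower, where 12.1% of all genes were called higher and 8.06% lower. Their median log2 fold change was 0.20 against −0.0019 over all genes, and 76.9% of them had positive values against 49.8% of all genes. The 9 that were not called included those with negative values, Slc7a2 (−0.27), Gria3 (−0.13) and Peg10 (−0.056). The 4 that rose were Ldb2, a LIM-domain binding protein, at 19.4, 15.9, 14.7 and 12.02 CPM in TG against 5.80, 2.67, 8.10 and 6.35 CPM in WT (log2 fold change 1.44, SE 0.27, adjusted p = 0.00246), the sarcoglycan Sgce (0.59, SE 0.13, adjusted p = 0.00436), the G-protein signalling regulator Rgs4 (0.49, SE 0.11, adjusted p = 0.00695) and the glutamine carrier Slc38a5 (0.49, SE 0.14, adjusted p = 0.023). Ldb2 is also expressed in endothelium. All 10 endothelial markers were called higher, with sums of 1218 to 1278 CPM in TG and 515 to 905 CPM in WT, and Pecam1 at 267 to 337 CPM in TG and 96.5 to 194 CPM in WT. With the endothelial and stromal covariate 0 of the 13 were called, and Ldb2 stood at 0.36 (adjusted p = 0.866), Sgce at 0.43 (adjusted p = 0.67), Rgs4 at 0.62 (adjusted p = 0.363) and Slc38a5 at 0.32 (adjusted p = 0.804). The SE of Rgs4 was then 0.26 against 0.11, so its call was lost with a larger value. Slc38a5 also missed the threshold without any of 5 single libraries, lowest without WT replicate 4 (0.39, adjusted p = 0.0722), and with the acinar covariate (0.36, adjusted p = 0.0983).

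Most of the tested transcription factors that alpha cells share with beta cells were lower. Of 8 tested, 0 were higher and 5 lower, with a median of −0.60, where 12.1% of all genes were called higher and 8.06% lower. Pax6, which drives glucagon and insulin transcription, measured 250, 315, 274 and 312 CPM in TG replicates 1 to 4, against 375, 407, 402 and 389 CPM in WT replicates 1 to 4, with no overlap (log2 fold change −0.45, SE 0.090, adjusted p = 0.00253). Neurod1, a helix-loop-helix factor of endocrine cells, stood at 73.6 ± 7.26 CPM in TG and 136 ± 11.7 CPM in WT (SD, n = 4 each), with a log2 fold change of −0.88 (SE 0.094, adjusted p = 1.33e-05). The forkhead factor Foxa2 (−0.75, adjusted p = 0.00103), the homeobox factor Nkx2-2 (−0.78, adjusted p = 0.00212) and the zinc-finger factor Insm1 (−0.78, adjusted p = 0.00667) fell as well. Isl1 (−0.23, adjusted p = 0.159), Rfx6 (−0.11, adjusted p = 0.586) and Fev (1.06, adjusted p = 0.0697) did not pass. Fev was called higher with DESeq2 (1.05, adjusted p = 0.0487), with the acinar covariate (1.37, adjusted p = 0.028) and without TG replicate 1 (1.29, adjusted p = 0.0242), and Isl1 was called lower without TG replicate 4 (−0.35, adjusted p = 0.0433). With the endothelial and stromal covariate 0 of the 8 were called, with a median of −0.45 and wider SEs (Pax6 0.19 against 0.090). Values were then larger in size for Foxa2 (−0.94) and Insm1 (−1.04), and smaller for Pax6 (−0.37), Neurod1 (−0.75) and Nkx2-2 (−0.54). Relative to Gcg, Pax6 stood at −0.90 (adjusted p = 0.0373) and Neurod1 at −1.33 (adjusted p = 0.000487). The 10 beta-cell markers were all called lower and summed to 50093 to 64198 CPM in TG and 103120 to 123756 CPM in WT. The part of beta cells and of alpha cells in the counts of shared genes was not measured.

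Genes that process proglucagon were lower in part. Of 6 tested, 0 were higher and 4 lower, with a median of −0.37, where 12.1% of all genes were called higher and 8.06% lower. Pcsk2, the convertase that makes glucagon and also acts on proinsulin, measured 2053, 2638, 2052 and 2122 CPM in TG replicates 1 to 4, against 2980, 2793, 2656 and 2650.2 CPM in WT replicates 1 to 4. The groups did not overlap (log2 fold change −0.32, SE 0.098, adjusted p = 0.0301), but the adjusted p exceeded 0.05 in fits that omitted TG replicate 1 (−0.28) or 3 (−0.32) or WT replicate 1 (−0.29) or 2 (−0.32), and with either covariate. Pcsk1, the convertase of beta cells and of gut endocrine cells, fell by 1.0 on the log2 scale (SE 0.096, adjusted p = 4.4e-06), and carboxypeptidase E (Cpe) changed by −0.43 (SE 0.11, adjusted p = 0.0131). Pcsk1n, an inhibitor of PCSK1, stood at −0.52 (adjusted p = 0.0184), and lost the call without WT replicate 2 (−0.44, adjusted p = 0.0568) and with the acinar covariate (−0.48, adjusted p = 0.0538). Scg5, the chaperone of PCSK2, stood at −0.21 (adjusted p = 0.152). Pcsk1 alone was called with the endothelial and stromal covariate.

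The receptors of proglucagon peptides differed from each other. Gcgr, the glucagon receptor, measured 12.5, 21.2, 19.5 and 16.4 CPM in TG replicates 1 to 4, against 21.2, 19.1, 21.1 and 13.4 CPM in WT replicates 1 to 4 (log2 fold change −0.11, SE 0.18, 95% interval −0.49 to 0.27, adjusted p = 0.744). Glp1r, the receptor of glucagon-like peptide 1, measured 181, 266, 204 and 285 CPM in TG against 408, 423, 587 and 489 CPM in WT, lower in every TG library (log2 fold change −1.03, SE 0.16, adjusted p = 0.000736). Glp2r stayed at or below 3.73 CPM in every library and was not called (0.81, adjusted p = 0.38).

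**Figure D5:**
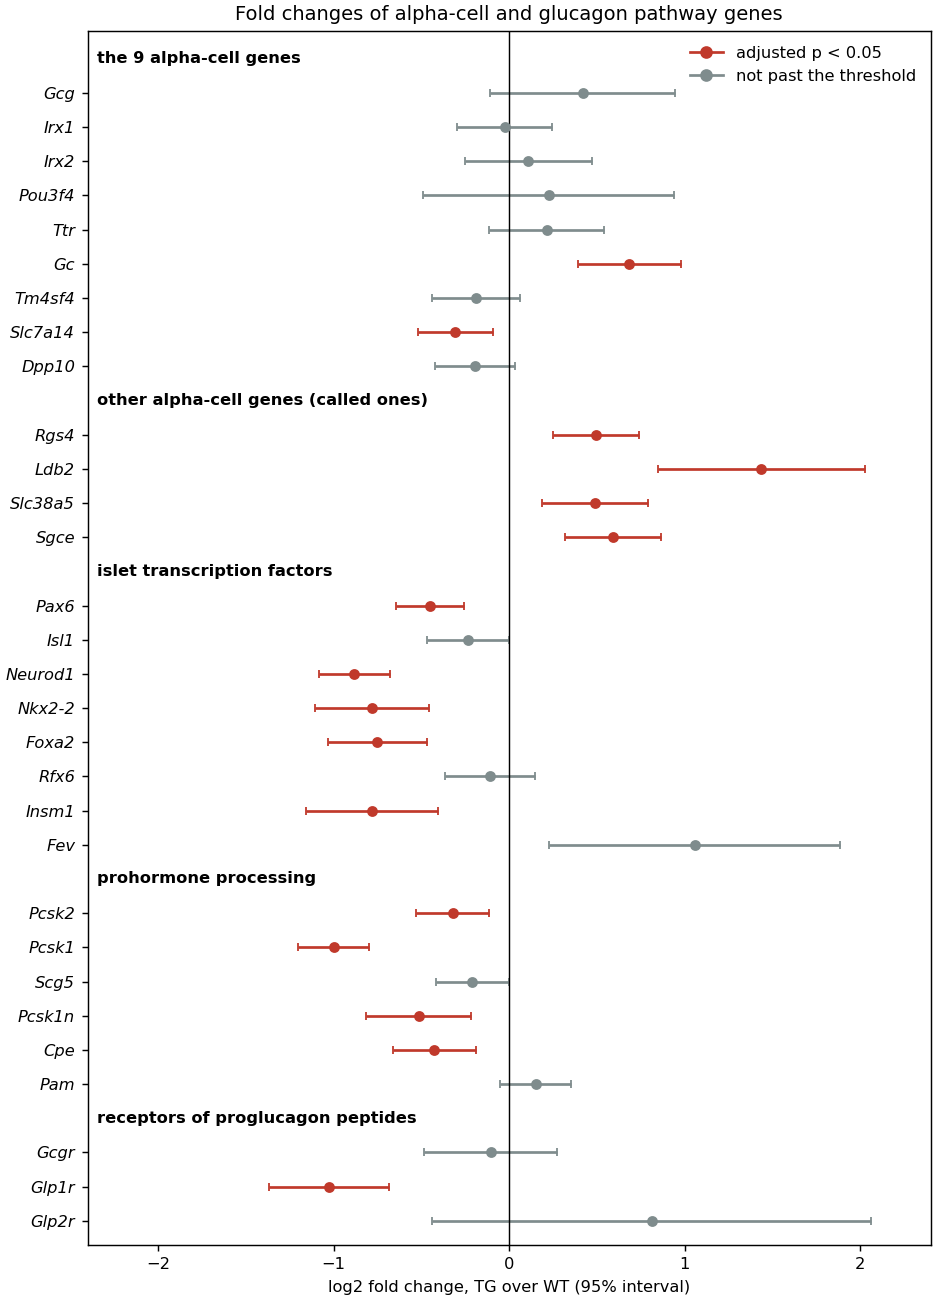
Log2 fold change of TG over WT with its unadjusted 95% interval for the 9 alpha-cell genes, the 4 called of 13 other alpha-cell genes and the tested genes of 3 related lists, in red where the adjusted p was under 0.05. Of the 9, Gc at 0.69 and Slc7a14 at −0.31 are red. Red and lower are 5 of 8 shared islet transcription factors and 4 of 6 processing genes, where 8.06% of all genes were called lower.

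Among close relatives of the members, 11 of 18 passed the filter on low counts. Of these 6 were called higher and 1 lower, where 12.1% of all genes were called higher and 8.06% lower. Irx3, the Iroquois relative that lies outside the Irx1 and Irx2 cluster, measured 1.998, 3.11, 3.13 and 2.56 CPM in TG replicates 1 to 4, against 0.580, 0.83, 1.43 and 0 CPM in WT replicates 1 to 4. From these few counts the fit gave 1.89 on the log2 scale (SE 0.59, adjusted p = 0.0389), and the call was lost without any of 6 single libraries (1.78 to 2.02, adjusted p between 0.0528 and 0.107). With the endothelial and stromal covariate it was 0.51 (adjusted p = 0.925). Irx4, Irx5, Irx6, the POU relatives Pou3f1, Pou3f2 and Pou3f3, and Tm4sf5 had too few counts to be tested, none above 0.810 CPM in any library.

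Markers of other cells in the islets moved with the groups in part. The counts of called markers stand beside 12.1% of all genes called higher and 8.06% lower. Of the 10 stromal and mural markers, 6 were higher, with sums of 3348 to 6485 CPM in TG and 844 to 2798 CPM in WT, and Col1a1 at 70.0 to 156 CPM in TG and 26.8 to 119 CPM in WT. Of 8 duct markers 6 were higher, with sums of 1265 to 1639 CPM in TG and 712 to 804 CPM in WT and Krt19 at 30.1 to 83.3 CPM in TG and 2.12 to 14.3 CPM in WT. Of 7 tested macrophage and leukocyte markers 6 were higher, with Ptprc at 19.9 to 23.9 CPM in TG and 7.97 to 13.7 CPM in WT. Of 5 Schwann and neural markers 2 were higher, with sums of 70.9 to 85.4 CPM in TG and 42.9 to 55.0 CPM in WT. Of 4 delta-cell markers 0 were called, with sums of 3350 to 4021 CPM in TG and 3479 to 4487 CPM in WT. Of 10 acinar markers 0 were called, with Prss2 at 340 to 1858 CPM in TG and 68.9 to 624 CPM in WT. Of the 3 PP and epsilon markers Pyy was called. No marker of these lists was at 0 in all libraries. Beyond the acinar and the endothelial and stromal covariate fits given above, the part of these cells in the results was not tested.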

How the data were processed

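Whole-islet RNA of 8 libraries was analysed, grouped by their labels as TG (n = 4) and WT (n = 4). The authors deposited raw counts per Ensembl gene, whole numbers with no normalization. Per the submitters' processing notes, STAR 2.7.10a, HTSeq 0.11.3 and mm39 were used; no source used here states the strand setting. Reads outside genes (25.3% to 31.5% of each table, highest in TG replicate 1) and ambiguous reads (3.74% to 4.36%) stayed out of library sizes. Genes with a count numbered 38017 to 39510 in TG replicates 1 to 3, against 31088 in TG replicate 4 and 33093 to 34189 in WT libraries. Replicates all differed by more than sampling noise (chi-square per gene 16.9 to 56.7). Symbols were given to 52081 of 55414 identifiers, where 68 that shared a symbol with a more abundant one kept only their identifier. Exon lengths and overlapping genes came from GENCODE M21, of another build, so no gene coordinates are given. Of the 9 genes, Slc7a14 overlapped 1 annotated gene on the opposite strand, with 479 counts over the 8 libraries against 44362 of its own. Dpp10 overlapped 10, none with more than 222 counts against its 10795, and the other 7 overlapped 0.

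Groups were compared with edgeR 4.0.16 (quasi-likelihood, robust, two-sided, filterByExpr at a minimum count of 10, TMM, R 4.3.3), with p-values adjusted by Benjamini-Hochberg over all 20509 tested genes; adjusted p-values are from this test. Intervals are 95% and unadjusted. A further fit scaled each library to its Gcg count. Fold changes are fitted values in log2. The smallest library allows 0.182 CPM at a count of 0 (3 counts), for counting error only. In simulated data of the TG against WT comparison over 20509 genes, the edgeR step recovered 25.4% of the genes altered 1.5-fold, 57.6% of the 2-fold ones and 78.8% of the 4-fold ones, with 5.61% of its calls false. Far fewer genes were altered there than were called in the real data (4129), so these shares need not hold for the real test. The members and lists were chosen with earlier results of these data known, and the endothelial and stromal covariate was first used after these data had been seen. Named are the members, up to 4 genes of each related list with the lowest adjusted p, the other hormone genes, the first marker of each cell type list and the 3 genes most like Gcg; other genes of these lists were named after their values were seen. Some genes that this rule names are not reported here. Alternatives were DESeq2 1.42.0, limma-voom (limma 3.58.1), median-of-ratios and upper-quartile scaling, TMM without the 50 most abundant genes, no low-count filter, a minimum of 1 CPM in 4 libraries, the replicate number as a block, the 2 covariates and each library left out in turn. Figures were drawn with matplotlib 3.10.9.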

Additional observations from a re-analysis of the deposited data

Results flagged for a closer look

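Dpp10 in WT replicate 1 measured 88.26 CPM, against 64.0 to 67.7 CPM in the other WT libraries. The gap to the nearest of them was 0.847 of the range of the group, above Dixon's 95% critical value for 4 samples. Chance flags about 5% of groups, and 18 groups of 4 were examined. WT replicate 1 was also the highest WT library for Gcg, Irx1, Irx2, Pou3f4 and Ttr.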

How the results depend on the processing

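With endothelial, stromal and mural genes as a covariate 343 genes were called over the whole table, against 4129 without it, and 1 of the 9 alpha-cell genes. The marker sums behind this covariate did not overlap between the groups. Calls lost with it can come with wider SEs, and do not show that a change is absent. The acinar covariate also left 1 of the 9, where 3134 of all genes were called. Under DESeq2, limma-voom, the other scalings and the other filters the called members were Gc and Slc7a14, as in the reported test. Leaving out single libraries gave 1 to 2 called members and 2864 to 4404 called genes, and the called members always included Gc. With no filter the median log2 fold change of all genes was 0.11. Same-numbered libraries of the groups hardly deviated together (correlations −0.030 to 0.081). TG replicates 2 and 3 correlated best with the WT library of their own number, and TG replicates 1 and 4 with another. Such correlations cannot show whether the numbers pair the samples, which is not known here. With the replicate block 3 of the 9 were called, Gcg among them (0.43, adjusted p = 0.043), where 4673 of all genes were called, and 3 of 8 relative to Gcg (Slc7a14, Tm4sf4 and Dpp10). Relative to Gcg, leaving out single libraries gave 0 to 2 called members. The causes of these shifts were not tested. The counts of Pou3f4 (415 in all libraries together) limit what can be said of it.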
